A study of Mus musculus with 18 samples.

Results

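Aldh1a3 and 8 other genes of retinoid metabolism were followed in RNA-seq libraries of sorted mouse beta cells. The set held Aldh1a3, Aldh1a1, Aldh1a2, Dhrs3, Rdh10, Rbp4, Rara, Rarb and Rxrg, 9 of the 53090 genes in the count table, named through GENCODE release M21. They were listed by function, with Aldh1a3 at the head because its pattern across these groups was already known. Aldh1a3 was thus selected on its level in these same libraries, and its levels are given as a description with no test. For the other 8, p-values come from a fit to all genes and describe a set drawn up with earlier results in view. Low counts kept Rarb and Rxrg out of that fit, so 7 of the 9 were tested. The cells came from mice labelled LIRKO, which lack the insulin receptor in the liver, and from mice labelled Ctrl. Both genotypes were fed Chow or HFD, taken to mean a high-fat diet, which made 4 groups, with 6 Ctrl and 4 LIRKO libraries on chow and 5 Ctrl and 3 LIRKO libraries on HFD. Every islet preparation was cultured overnight and dispersed with trypsin, and the cells were sorted by forward scatter and endogenous fluorescence, so all groups carry the effects of culture and sorting. No source used here gives the strain, age, sex, the Cre driver of the knockout or the animals behind each library. The p-values thus measure the spread between libraries, which may be technical in part, and replicate numbers only name libraries.

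Vitamin A reaches tissues as retinol bound to a carrier, and cells oxidise it in steps to retinaldehyde and then to retinoic acid. Retinoic acid binds nuclear receptors of the RAR family, which pair with RXR receptors on DNA, and enzymes of the CYP26 family break it down. LIRKO mice are known for severe insulin resistance, high blood insulin and enlarged islets. Aldh1a3, which makes retinoic acid from retinaldehyde, is widely used as a marker of beta cells that have lost mature features.

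Each library held between 19490235 and 51714775 counted reads. Ins2 stood at 59881 to 145739 counts per 1e6 reads (CPM, scaled for library composition), the level of a beta cell hormone gene, and transcripts of other islet cells were present. Gcg of alpha cells reached 3965 CPM, Sst of delta cells 765 CPM, Ppy of PP cells 1343 CPM and the endothelial gene Pecam1 54.2 CPM. The mesothelial marker Upk3b was at or near 0 throughout. LIRKO chow replicates 1 and 2 were close to each other, as were replicates 3 and 4. The median absolute deviation of the log2 ratio was 0.0684 and 0.0779 in those pairs and 0.129 to 0.591 in the other pairs from 1 group, over 12541 genes. The pairs differed by more than counting noise, with a chi-square per degree of freedom of 4.52 and 5.65. That measure cannot tell separate libraries from 1 library sequenced again, since differences between sequencing runs also add to it. Each pair may come from 1 preparation. The 4 are counted as n = 4 below, which may overstate the replication of LIRKO chow, and the lead counts were repeated with each pair summed. Ctrl HFD replicates 1 and 2 stood apart from the other 3 of their group (0.452 to 0.591 on the same measure, against at most 0.228 among those 3).

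Aldh1a3 (ENSMUSG00000015134, chromosome 7, 66390890 to 66427517, minus strand, GRCm38) was higher in every LIRKO library than in any Ctrl library on the same diet. In Ctrl chow it stood at 1.55, 2.08, 21.1, 2.19, 1.14 and 1.42 CPM in replicates 1 to 6. In Ctrl HFD it was at 11.2, 17.97, 8.85, 24.3 and 13.9 CPM. The LIRKO chow libraries held 79.5, 82.1, 93.5 and 96.7 CPM, and the LIRKO HFD libraries 52.9, 44.4 and 54.8 CPM. Within LIRKO the HFD libraries all lay below the chow libraries, while within Ctrl the HFD libraries all lay above 5 of the 6 chow libraries. Of all genes tested, 34.4% did not overlap between diets in LIRKO. Between genotypes 11.7% did not overlap on chow and 5.01% on HFD. Ctrl chow replicate 3 was the exception among the chow libraries, inside the Ctrl HFD range. In order of mean level, Ctrl chow (4.92 ± 7.96 CPM, SD, n = 6) and Ctrl HFD (15.3 ± 6.11, n = 5) overlapped, LIRKO HFD (50.7 ± 5.54, n = 3) was above both and LIRKO chow (88.0 ± 8.41, n = 4) was above all. Without replicate 3 the mean of Ctrl chow was 1.68 CPM. Because the cells were measured in bulk, a larger share of cells with the transcript and more transcript per cell cannot be told apart.

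**Figure D1:**
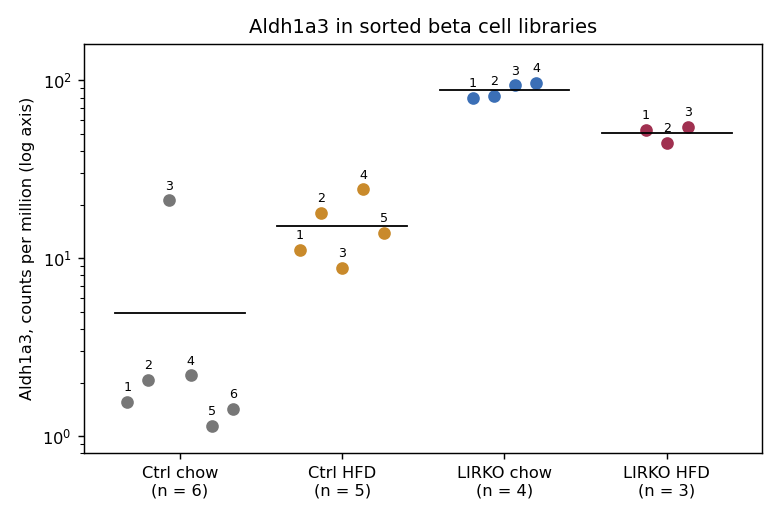
Level of Aldh1a3 in CPM on a log axis, 1 numbered point per library in each of the 4 groups, with a bar at the group mean. The 4 LIRKO chow libraries sit at 79.5 to 96.7 CPM, and Ctrl chow replicate 3 (21.1 CPM) sits above the other 5 of its group.

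The fitted log2 difference of Aldh1a3 between LIRKO and Ctrl was 4.14 (SE 0.66) on chow and 1.73 (SE 0.69) on HFD. Between HFD and chow it was 1.62 (SE 0.60) in Ctrl and −0.80 (SE 0.74) in LIRKO. The genotype by diet interaction, which subtracts the genotype difference on chow from that on HFD, was −2.41 (SE 0.97). Leaving out Ctrl chow replicate 3 moved the values that use Ctrl chow to 5.71, 3.19 and −3.98 for genotype on chow, diet in Ctrl and interaction. That library also had the highest summed level of 12 acinar markers in its group (575 CPM, against 9.35 to 206 in the other 5) and of 12 endothelial markers (220 CPM, against 42.3 to 92.7). LIRKO chow replicates 1 and 2 held 216 and 269 CPM of the acinar markers and replicates 3 and 4 held 55.0 and 26.2, with Aldh1a3 at 79.5 to 96.7 CPM in all 4. Their part in the value of Ctrl chow replicate 3 was not tested.

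Aldh1a1 and Aldh1a2 encode the other retinaldehyde dehydrogenases of the family, and beta cell libraries held few reads of either. Aldh1a1 (chromosome 19, 20492715 to 20643465) had 135 counts in all 18 libraries together and at most 17 in any library. Aldh1a2 (chromosome 9, 71215789 to 71296243) had 79 counts, at most 14 in a library and 0 in 5 libraries. A count of 0 allows up to 3 counts, or 0.0580 to 0.154 CPM depending on the library, for counting error only. Aldh1a1 averaged 0.283 ± 0.129 CPM (SD, n = 6) in Ctrl chow and 0.168 ± 0.107 (n = 4) in LIRKO chow, and on HFD 0.141 ± 0.0610 (n = 5) in Ctrl and 0.233 ± 0.181 (n = 3) in LIRKO. Aldh1a2 averaged 0.0431 ± 0.0497 and 0.105 ± 0.119 CPM on chow and 0.168 ± 0.201 and 0.195 ± 0.0475 CPM on HFD, Ctrl before LIRKO. All neighbouring groups overlapped in both genes. Neither passed in any comparison, with adjusted p of 0.195 to 0.944 for Aldh1a1 and 0.173 to 0.990 for Aldh1a2, and at this depth only large differences could be seen.

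The 3 genes are related in sequence, and how alike they are matters for how reads were assigned. Aldh1a3 shares 67.4% of aligned coding bases with Aldh1a1 and 68.9% with Aldh1a2, and the longest stretch of identical bases is 17 and 26 bases long. In the transcripts compared, a read longer than that stretch cannot match both Aldh1a3 and the other gene without a mismatch. A stretch of 63 coding bases of exon 9 around the active-site cysteine, among the best conserved parts of the enzyme, is printed from GENCODE transcripts to show how far the 3 differ even there. Capitals mark bases that differ from Aldh1a3, 19 in Aldh1a1 and 12 in Aldh1a2. The stretches lie at chr7:66406073-66406135 (minus strand), chr19:20630689-20630751 (plus strand) and chr9:71283401-71283463 (plus strand) on GRCm38.
Aldh1a3: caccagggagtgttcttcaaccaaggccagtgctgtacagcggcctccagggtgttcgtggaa
Aldh1a1: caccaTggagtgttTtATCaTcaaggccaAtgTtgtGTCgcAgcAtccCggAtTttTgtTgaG
Aldh1a2: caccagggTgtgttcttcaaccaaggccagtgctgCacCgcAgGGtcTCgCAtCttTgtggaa
Aldh1a1 is much closer to Aldh1a7, a mouse paralog at 91.6% identity with an identical run of 100 bases, so reads of that pair may be shared or lost. Aldh1a7 had 12 counts in the 18 libraries.

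Per kilobase of exon, Aldh1a3 made up most of the signal of the 3 dehydrogenases in every library. Its share was 71.0%, 87.0%, 98.7%, 92.2%, 90.8% and 71.1% in Ctrl chow replicates 1 to 6. Elsewhere it ranged from 91.2% to 99.6% (Ctrl HFD), from 99.2% to 99.9% (LIRKO chow) and from 98.7% to 98.97% (LIRKO HFD). The means were 85.1 ± 11.5% and 99.6 ± 0.266% on chow and 96.8 ± 3.41% and 98.8 ± 0.150% on HFD, Ctrl before LIRKO. The ratio does not depend on how libraries were scaled, and in Ctrl chow replicates 1 and 6, the lowest, it rests on 17 and 13 counts of Aldh1a1.

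On the same scale of CPM per kilobase, the leading gene differed between the genotypes on chow but not on HFD. In Ctrl chow Rbp4 led (36.9 ± 28.2, n = 6), followed by Rdh10 (3.04 ± 0.470), Rara (2.78 ± 0.637), Aldh1a3 (1.07 ± 1.72) and Dhrs3 (0.941 ± 0.413). The place of Aldh1a3 above Dhrs3 rests on replicate 3 (4.58 CPM per kilobase), since in each of the other 5 libraries Dhrs3 (0.474 to 1.28) was above Aldh1a3 (0.247 to 0.475). In LIRKO chow Aldh1a3 led (19.1 ± 1.82, n = 4), followed by Rbp4 (15.0 ± 2.49), Rdh10 (3.09 ± 0.186), Rara (1.78 ± 0.129) and Dhrs3 (1.32 ± 0.663). The levels of Rdh10 in the 2 chow groups lay within their spread. On HFD Rbp4 led in both genotypes, at 20.8 ± 6.35 in Ctrl and 17.2 ± 3.12 in LIRKO. Aldh1a3 was at 3.30 ± 1.32 and 11.0 ± 1.20 there, Ctrl before LIRKO.

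Rdh10 (chromosome 1, 16105774 to 16133734) encodes the enzyme that oxidises retinol to retinaldehyde, the step before Aldh1a3. It was at 10.8, 10.7, 14.2, 11.1, 14.5 and 14.5 CPM in Ctrl chow and at 8.34, 9.36, 11.9, 13.1 and 11.6 CPM in Ctrl HFD. The LIRKO chow libraries held 13.1, 11.8, 13.7 and 12.8 CPM and the LIRKO HFD libraries 11.0, 10.9 and 12.1 CPM. All 4 groups overlapped their neighbours in order of level. The fitted log2 differences were 0.02 (SE 0.14) for genotype on chow, 0.06 (SE 0.16) for genotype on HFD, −0.22 (SE 0.13) for diet in Ctrl and −0.18 (SE 0.17) for diet in LIRKO, none past the threshold (edgeR adjusted p of 0.257 to 0.961). The sign of both genotype values changed when single libraries were left out.

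Dhrs3 (chromosome 4, 144892827 to 144928209) encodes the reductase that returns retinaldehyde to retinol and is known to be induced by retinoic acid. It rose on HFD in both genotypes. Ctrl chow libraries held 1.92, 2.64, 4.61, 3.75, 1.39 and 2.22 CPM and Ctrl HFD libraries 7.65, 9.59, 5.86, 7.78 and 4.65 CPM. LIRKO chow libraries held 2.03, 2.42, 6.03 and 4.94 CPM and LIRKO HFD libraries 16.6, 17.6 and 14.4 CPM. Every HFD library was above every chow library of its genotype, in Ctrl by the narrow gap of 4.65 to 4.61 CPM. The increase on HFD was 2.57-fold in Ctrl (log2 1.36, SE 0.31, adjusted p = 0.0309) and 4.20-fold in LIRKO (log2 2.07, SE 0.39, adjusted p = 0.0147). Between genotypes the log2 difference was 0.49 on chow (SE 0.33, adjusted p = 0.467), where the groups overlapped. On HFD it was 1.19 (SE 0.36, adjusted p = 0.220), with every LIRKO library above every Ctrl library. The interaction was 0.71 (SE 0.50, adjusted p = 0.977), so the diet effects of the 2 genotypes were not shown to differ.

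The Dhrs3 calls depended on single libraries. In Ctrl the adjusted p rose to 0.0717, 0.0599 and 0.0768 without Ctrl chow replicate 1, 2 or 6, and to 0.0825 and 0.0764 without Ctrl HFD replicate 1 or 2. It was 0.107 in a fit to the 2 groups alone, 0.0555 with the LIRKO chow pairs summed and 0.149 without Ctrl HFD replicates 1 and 2, at log2 differences of 1.19 to 1.37. In LIRKO it was 0.0565, 0.0645 and 0.0677 without LIRKO chow replicate 1, LIRKO chow replicate 2 or LIRKO HFD replicate 2, and 0.155 with the pairs summed (log2 2.05).

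Markers of endothelial cells moved with Dhrs3. Of 12 endothelial markers 11 to 12 had at least 10 counts in each library, and their summed level was 42.3 to 220 CPM in Ctrl chow, 171 to 351 in Ctrl HFD and 274 to 341 in LIRKO HFD. In LIRKO chow it was 19.5 and 24.0 CPM in replicates 1 and 2, where Dhrs3 was 2.03 and 2.42 CPM. It was 198 and 170 CPM in replicates 3 and 4, where Dhrs3 was 6.03 and 4.94 CPM. The endothelial gene Pecam1 followed at 2.16, 3.12, 26.6 and 23.0 CPM, and the sum of 12 stellate and fibroblast markers at 3.06, 3.89, 54.0 and 44.9 CPM. On HFD the endothelial sums of both genotypes overlapped, and Pecam1 was 12.4 to 33.8 CPM in Ctrl and 30.2 to 54.2 CPM in LIRKO. Dhrs3 was 4.65 to 9.59 CPM in Ctrl and 14.4 to 17.6 CPM in LIRKO on that diet. The part of these cells in the level of Dhrs3 was not tested.

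**Figure D2:**
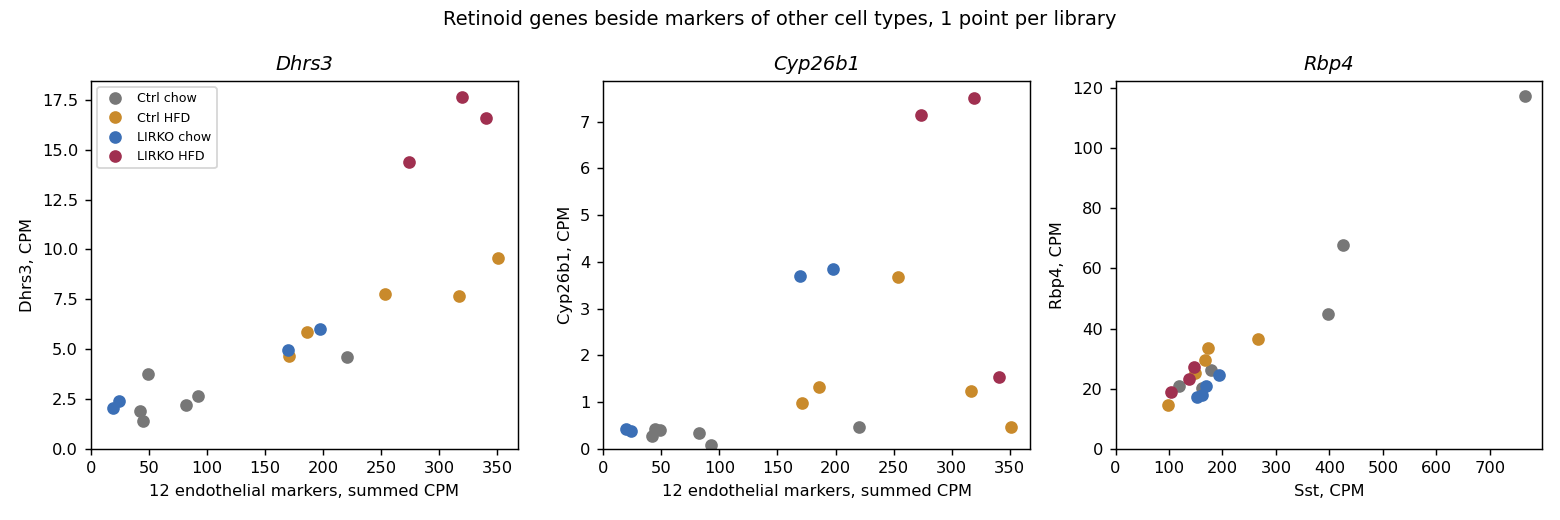
Levels of Dhrs3 and Cyp26b1 against the summed level of 12 endothelial markers, and of Rbp4 against Sst, all in CPM, 1 point per library coloured by group. Dhrs3 and the endothelial sum are both low in LIRKO chow replicates 1 and 2, and the 3 Ctrl chow libraries highest in Rbp4 are also the 3 highest in Sst.

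Rbp4 (chromosome 19, 38116629 to 38125281) encodes the retinol carrier of blood. In Ctrl chow it was at 117, 45.0, 26.3, 67.8, 20.3 and 20.8 CPM, and in Ctrl HFD at 29.7, 33.4, 25.3, 36.5 and 14.6 CPM. LIRKO chow libraries held 17.1, 17.98, 24.5 and 20.9 CPM and LIRKO HFD libraries 18.98, 27.4 and 23.1 CPM. Ctrl chow varied most and all groups overlapped. The log2 difference between LIRKO and Ctrl on chow was −1.30 (SE 0.42, adjusted p = 0.0843). It passed without Ctrl chow replicate 5 (−1.46, adjusted p = 0.0451) and in DESeq2 (adjusted p = 0.0225). Over all alternatives its adjusted p ran from 0.0225 to 0.482. The other comparisons of Rbp4 gave adjusted p of 0.135 to 0.946. Sst, the hormone gene of delta cells, was at 765, 398, 179, 426, 163 and 118 CPM in the same Ctrl chow libraries and at 98.3 to 267 CPM in all others. The sum of 9 delta cell markers, Rbp4 not among them, was 249 to 897 CPM in Ctrl chow and 213 to 371 CPM elsewhere. The part of delta cells in the level of Rbp4 was not tested.

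Rara (chromosome 11, 98927818 to 98974942) encodes the retinoic acid receptor RAR alpha. It was at 9.37, 10.1, 12.1, 17.3, 11.7 and 12.2 CPM in Ctrl chow and at 8.25, 8.11, 7.65 and 7.00 CPM in LIRKO chow, so all 4 LIRKO libraries lay below all 6 Ctrl libraries. On HFD it was at 19.5, 18.8, 13.4, 11.1 and 12.7 CPM in Ctrl and at 14.2, 13.1 and 10.8 CPM in LIRKO, and these overlapped. The log2 difference between LIRKO and Ctrl on chow was −0.65 (SE 0.19), just outside the threshold (adjusted p = 0.0512). It passed without Ctrl chow replicate 1 (adjusted p = 0.0360) and without Ctrl HFD replicate 1, 2 or 4 (0.0389, 0.0434 and 0.0385), libraries outside both groups that enter the common fit. It also passed in DESeq2 (0.0219), in a fit to the 2 groups alone (0.0299) and without Ctrl HFD replicates 1 and 2 (0.0195). Across all alternatives the adjusted p ran from 0.0195 to 0.421. In LIRKO all 3 HFD libraries were above all 4 chow libraries, at a log2 difference of 0.71 (SE 0.21, adjusted p = 0.0960). This passed in DESeq2 (0.0370), in a fit to the 2 groups alone (0.0133) and without Ctrl HFD replicates 1 and 2 (0.0253), and its adjusted p ran from 0.0133 to 0.472 over all alternatives. In Ctrl the diets overlapped (log2 0.31, SE 0.17, adjusted p = 0.199), and the interaction was 0.40 (SE 0.27, adjusted p = 0.977).

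**Figure D3:**
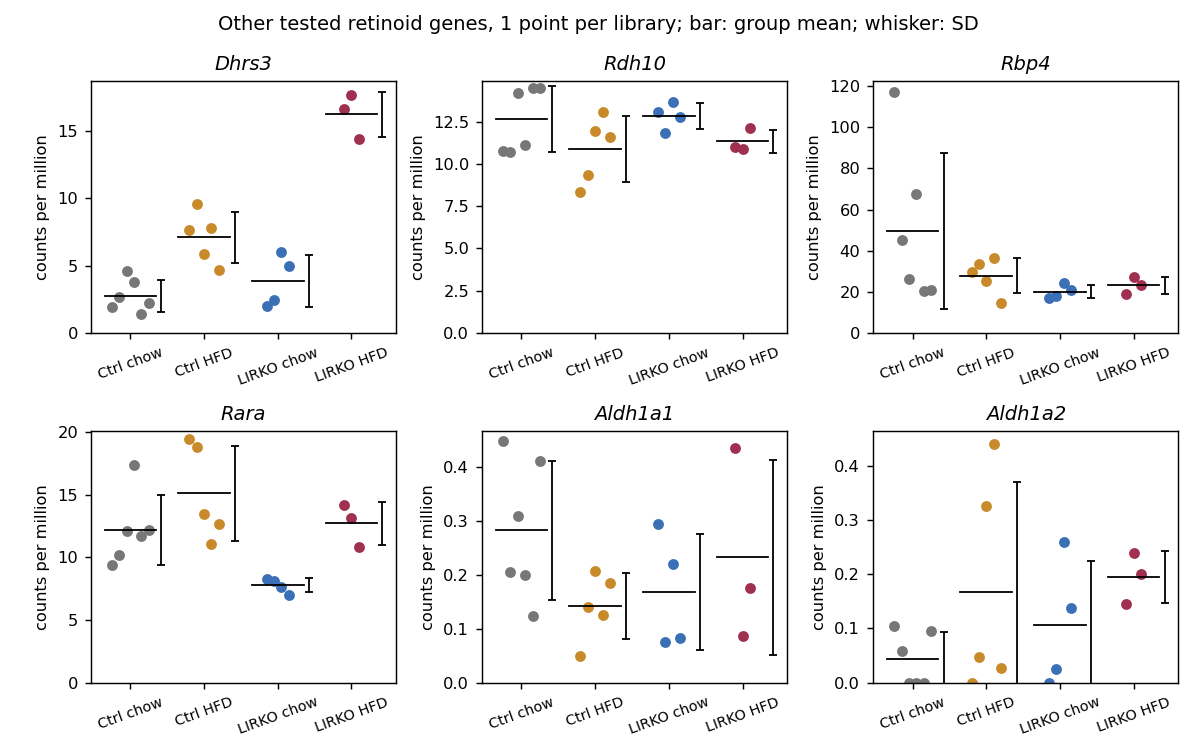
Levels of Dhrs3, Rdh10, Rbp4, Rara, Aldh1a1 and Aldh1a2 in CPM, 1 point per library, with bars at the group means and whiskers of 1 SD cut at 0. Dhrs3 is highest in the 3 LIRKO HFD libraries (14.4 to 17.6 CPM), Rara is lowest in the 4 LIRKO chow libraries (7.00 to 8.25 CPM), and Rdh10 overlaps throughout.

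Rarb and Rxrg, the genes of RAR beta and RXR gamma, were close to absent. Rarb (chromosome 14, 16430839 to 16819156) had 19 counts in all, at most 4 in a library and 0 in 8 libraries, and no group stood apart (highest library 0.117 CPM in Ctrl chow, 0.0599 in LIRKO chow, 0.0945 in Ctrl HFD and 0.0501 in LIRKO HFD). Its annotated span overlaps Top2b on the other strand, a gene at 38.0 to 97.0 CPM, and no source used here gives the strand setting of the counting. Rxrg (chromosome 1, 167598384 to 167639623) had 1 count, in Ctrl HFD replicate 3. At 3 counts the limit for both is 0.0580 to 0.154 CPM. Other genes annotated over these loci (Gm48162 at Rarb, C730002L08Rik and Gm6684 at Aldh1a1, Gm48124 at Aldh1a2 and Gm22061 at Rara) were at 0 to 0.0296 CPM.

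Rarb, Cyp26a1 and Dhrs3 are known to respond to retinoic acid, the first pair through elements near their start sites, so the sequences upstream of the start site are shown beside these levels. They come from the RefSeq promoter table on GRCm38.p6, in which 7 of the 9 genes had an entry, all but Aldh1a3 and Rdh10. The search was for direct repeats of the hexamer AGGTCA, or its variants AGTTCA, and GGTTCA, and also GGGTCA, in any combination, 1, 2 or 5 bases apart, on either strand, from 250 bases before to 50 after the start. Capitals mark a repeat with a spacing of 5. The regions lie at chr14:16575477-16575629 (minus strand), chr19:37697676-37697807 (plus strand) and chr4:144892577-144892826 (plus strand).
Rarb: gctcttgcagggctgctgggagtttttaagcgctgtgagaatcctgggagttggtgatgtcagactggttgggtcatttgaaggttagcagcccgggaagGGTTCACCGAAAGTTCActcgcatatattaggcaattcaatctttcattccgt
Cyp26a1: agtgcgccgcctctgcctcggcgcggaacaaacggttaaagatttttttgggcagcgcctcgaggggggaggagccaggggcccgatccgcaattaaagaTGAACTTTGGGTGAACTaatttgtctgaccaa
Dhrs3: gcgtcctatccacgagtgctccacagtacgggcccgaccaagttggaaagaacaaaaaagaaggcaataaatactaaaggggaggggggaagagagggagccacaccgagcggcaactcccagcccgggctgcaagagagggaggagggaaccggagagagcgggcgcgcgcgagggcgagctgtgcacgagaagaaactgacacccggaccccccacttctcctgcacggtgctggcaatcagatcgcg
The Rarb repeat, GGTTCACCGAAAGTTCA, spans −53 to −37 from the start, and that of Cyp26a1 reads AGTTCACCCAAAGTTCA on the other strand, from −32 to −16. The window of Dhrs3 held no match. A repeat with a spacing of 5 was found in 0.115% of all genes in the table (31 of 27025), and among the 7 genes and 53 further retinoid genes matched, Rarb and Cyp26a1 held it. Repeats with a spacing of 1 were in 0.263% of genes, Bco1 among them, and those with a spacing of 2 in 0.311%, none of them on these lists. A match describes letters, not binding. Both genes with the repeat were near the limit of detection in all 4 groups. Cyp26a1, which encodes a retinoic acid hydroxylase, had 21 counts in all and at most 3 in a library, and Rarb had the 19 given above.

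Apart from Aldh1a3, whose level is what chose it, 6 genes of the set were tested. Between LIRKO and Ctrl on chow 0 of the 6 passed in edgeR, against 5.15% of all 19284 genes tested. There 2 were below an unadjusted p of 0.05, DESeq2 called 2 (Rara and Rbp4) and limma voom 0. On HFD 0 passed between genotypes, against 0.508%, with 1 below an unadjusted p of 0.05 and 0 calls in DESeq2 and limma voom. HFD against chow gave 1 call in Ctrl (Dhrs3), against 9.93%, and 1 in LIRKO (Dhrs3), against 2.03%. The interaction gave 0, against 0.00519%, or 1 of 19284, with 0 below an unadjusted p of 0.05 and 0 calls in DESeq2 and limma voom. Groups did not overlap for 1 of the 6 genes between genotypes on chow (Rara below), against 11.7% of genes, and for 1 on HFD (Dhrs3 above), against 5.01%. Between diets this held for 1 of 6 in Ctrl (Dhrs3 above), against 3.56%. In LIRKO it held for 2 of 6 (Dhrs3 and Rara above), against 34.4%, a share near that of all genes. The median log2 difference of the 6 was −0.31, 0.10, 0.05 and 0.56 in the 4 pairwise comparisons, in the order chow, HFD, Ctrl and LIRKO, beside −0.02, −0.04, 0.04 and 0.03 over all genes. These medians include Aldh1a1 and Aldh1a2, both at few counts. For diet in LIRKO their values were 0.42 (SE 0.60) and 0.83 (SE 1.03). The comparisons share libraries, so their values are given side by side without relating them.

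**Figure D4:**
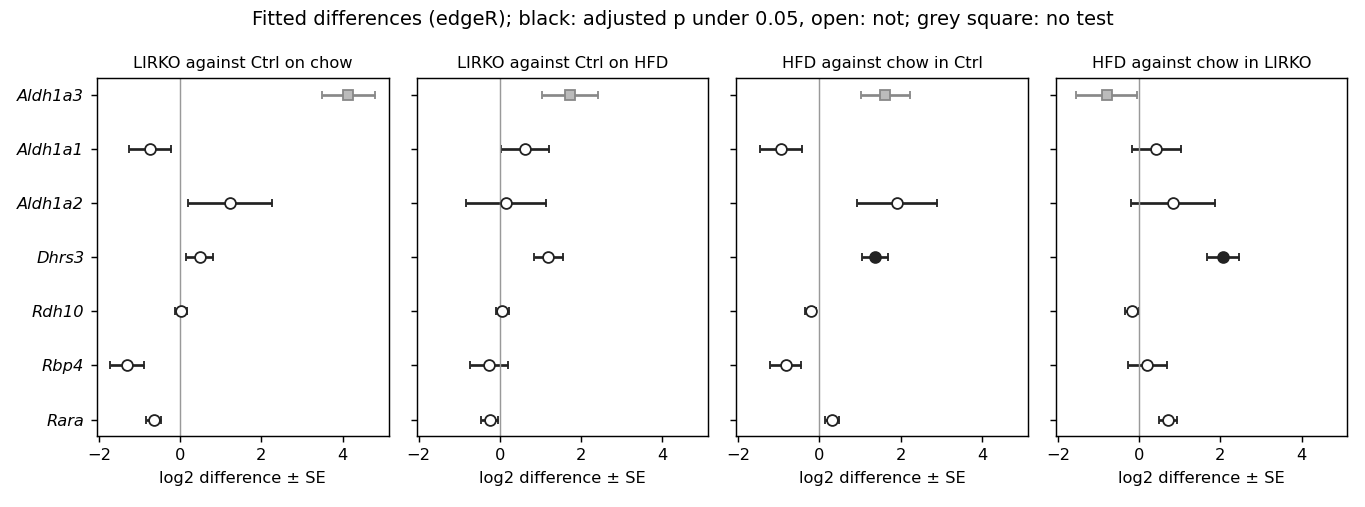
Fitted log2 differences with their SE for the 7 tested genes in the 4 pairwise comparisons. Black points passed an adjusted p of 0.05 (Dhrs3 on HFD in Ctrl and in LIRKO), open points did not, and grey squares show Aldh1a3, for which no test is given.

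Beyond these 9, lists of 75 retinoid genes covered uptake and binding, retinol and retinaldehyde interconversion, storage, catabolism, receptors and cofactors, and target genes. The table held 74 of them, and 52 were tested. Between LIRKO and Ctrl on chow 5 rose (Stra6, Rbp3, Ttr, Dhrs9 and Cyp26b1) and 1 fell (Dhrs4), 6 of 52 against 5.15% of all genes. On HFD 0 of 52 passed between genotypes, against 0.508% of all genes. There 10 were below an unadjusted p of 0.05, with 0 calls in DESeq2 and limma voom. HFD against chow in Ctrl gave 4 higher (Akr1b10, Cyp26b1 and Cd38 among them) and 1 lower (Rdh11), 5 of 52 against 9.93%. In LIRKO it gave 0, against 2.03%, with 18 below an unadjusted p of 0.05 and 3 calls each in DESeq2 and limma voom. The interaction gave 0, against 0.00519%, with 3 below an unadjusted p of 0.05 and 0 calls in both. The share of all genes below an unadjusted p of 0.05 was not taken, so those counts have no background. The median log2 difference of the 52 was −0.00, 0.07, 0.11 and 0.03, close to that of all genes. With the LIRKO chow pairs summed, 0 of the 6 and 1 of the 5 (Cd38) passed.

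Of 10 tested genes of retinoid uptake and binding, 3 were higher in LIRKO on chow and 0 lower, against 5.15% of all genes called. Stra6, the cell surface receptor that takes retinol from RBP4, was at 0.254 ± 0.0844 CPM in Ctrl chow (the sum of its counts there was 52) and at 0.871 ± 0.235 CPM in LIRKO chow, and rose by 1.75 on the log2 scale (SE 0.48, adjusted p = 0.0411). All 4 LIRKO libraries (0.576 to 1.12 CPM) were above all 6 Ctrl libraries (0.120 to 0.380 CPM). These groups did not overlap for 11.7% of all genes. On HFD the genotypes overlapped at 0 to 0.266 and 0.0581 to 0.436 CPM. Rbp3, an extracellular retinoid carrier best known from the retina, rose from 0.461 ± 0.276 to 2.35 ± 0.325 CPM (log2 2.34, SE 0.58, adjusted p = 0.0239). Ttr, transthyretin, which carries RBP4 in blood and is also on the alpha cell marker list used here, rose from 174 ± 26.5 to 313 ± 31.3 CPM (log2 0.85, SE 0.16, adjusted p = 0.00488). Its level was 282 and 293 CPM in LIRKO chow replicates 1 and 2, where Gcg was 116 and 104 CPM, and 349 and 329 CPM in replicates 3 and 4, where Gcg was 1477 and 1670 CPM. In Ctrl chow Gcg was at 255 to 1634 CPM. The part of alpha cells in the level of Ttr was not tested.

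The Ttr call held without each of the 18 libraries in turn (adjusted p of 0.00204 to 0.0272) and stood at 0.0520 with the pairs summed. The call of Rbp3 was lost without Ctrl chow replicate 2 or LIRKO chow replicate 2, 3 or 4 (adjusted p of at most 0.0675). That of Stra6 was lost without any single Ctrl chow or LIRKO chow library and without LIRKO HFD replicate 3, 11 of 18 cases (adjusted p of at most 0.123). The retinoic acid binding gene Crabp2 was at 0 to 0.695 CPM and passed in no comparison, and Crabp1 had 7 counts in all.

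Among 13 tested genes that interconvert retinol and retinaldehyde, 1 was higher and 1 lower between genotypes on chow, against 5.15% of all genes called. Dhrs9, a retinol dehydrogenase, rose from 0.150 ± 0.160 CPM (31 counts in Ctrl chow) to 0.765 ± 0.121 CPM (log2 2.31, SE 0.64, adjusted p = 0.0414), with all LIRKO libraries above all Ctrl libraries. Dhrs4, an NADPH-dependent reductase of retinaldehyde and other carbonyls, fell from 51.9 ± 7.80 to 29.8 ± 6.32 CPM (log2 −0.80, SE 0.21, adjusted p = 0.0292). Its highest LIRKO chow library (36.4 CPM) was below its lowest Ctrl chow library (40.0 CPM). Between genotypes on chow, 11.7% of all genes did not overlap. The Dhrs9 call was lost in 11 of 18 cases with 1 library left out (adjusted p of at most 0.128), among them each LIRKO chow library and each Ctrl chow library but replicate 1. The Dhrs4 call was lost without Ctrl chow replicate 4 or 6 or LIRKO chow replicate 1, 3 or 4 (at most 0.159). On HFD in Ctrl the aldo-keto reductase gene Akr1b10 rose from 16.4 ± 2.72 to 27.1 ± 10.3 CPM (adjusted p = 0.0359) and the retinol dehydrogenase gene Rdh11 fell from 28.3 ± 5.58 to 19.2 ± 4.07 CPM (adjusted p = 0.0497). The groups overlapped for both genes, and Ctrl HFD replicates 1 and 2 held 42.7 and 32.0 CPM of Akr1b10 against 18.6 to 23.2 CPM in the other 3. Without Ctrl HFD replicates 1 and 2 the adjusted p was 0.199 for Akr1b10 and 0.303 for Rdh11. With 1 library left out, the Akr1b10 call was lost without Ctrl chow replicate 1, 2 or 6 or Ctrl HFD replicate 1 or 2, and the Rdh11 call in 14 of 18 cases.

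Cyp26b1, the retinoic acid hydroxylase detected above the filter, rose in 2 comparisons, at a log2 difference of 2.64 (SE 0.69, adjusted p = 0.0323) between LIRKO and Ctrl on chow and of 2.21 (SE 0.67, adjusted p = 0.0471) on HFD in Ctrl. The LIRKO chow libraries held 0.416, 0.374, 3.85 and 3.71 CPM, so that replicates 1 and 2 lay within the Ctrl chow range of 0.0880 to 0.463 CPM and replicates 3 and 4 far above it. Replicates 3 and 4 were also the LIRKO chow libraries with high endothelial and stellate marker sums, and Col1a1 of collagen-making cells was 1.96 and 1.48 CPM there against 0.0490 and 0 in replicates 1 and 2. The part of those cells in Cyp26b1 was not tested. The LIRKO HFD libraries held 1.54, 7.50 and 7.14 CPM and Ctrl HFD libraries 0.466 to 3.68 CPM. The chow call was lost without LIRKO chow replicate 3 or 4 or Ctrl chow replicate 1, 2, 4 or 6 (adjusted p of at most 0.146) and in limma voom (0.223). The HFD call was lost in 12 of 18 cases. Cyp26c1 had 26 counts in all.

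Of the 9 further receptor and cofactor genes 0 passed in edgeR in any pairwise comparison, against 0.508% to 9.93% of all genes. In each comparison 1 to 2 were below an unadjusted p of 0.05. DESeq2 called 1 (on chow between genotypes) and limma voom 0. Rarg, the gene of RAR gamma, was at 17.3 to 27.2 CPM over all 18 libraries, Rxra of RXR alpha at 59.1 to 87.3 CPM and Rxrb of RXR beta at 35.0 to 70.6 CPM. Their log2 differences between LIRKO and Ctrl on chow were −0.08 (SE 0.11), 0.18 (SE 0.11) and −0.26 (SE 0.17), with adjusted p of 0.759, 0.399 and 0.449. All Rarg libraries of LIRKO HFD (22.3 to 27.2 CPM) were above those of LIRKO chow (18.6 to 20.8 CPM), at a log2 difference of 0.34 (SE 0.13, adjusted p = 0.190). The same 2 groups did not overlap for 34.4% of all genes.

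Of 14 tested genes known as retinoic acid targets, 0 passed in edgeR between genotypes, against 5.15% (chow) and 0.508% (HFD) of all genes. HFD against chow gave 1 call in Ctrl, against 9.93%, with 3 below an unadjusted p of 0.05, 3 called in DESeq2 and 1 in limma voom. In LIRKO it gave 0, against 2.03%, with 6 below an unadjusted p of 0.05 and 2 called each in DESeq2 and limma voom. Between genotypes 5 (chow) and 2 (HFD) were below an unadjusted p of 0.05, with 2 and 0 called in DESeq2 and 1 and 0 in limma voom. Cd38, an NAD glycohydrolase gene with a known retinoic acid response element, rose from 0.496 ± 0.399 CPM in Ctrl chow to 2.60 ± 0.933 CPM in Ctrl HFD (log2 2.37, SE 0.54, adjusted p = 0.0298), with every HFD library above every chow library. In LIRKO it was 0.441, 0.125, 1.20 and 1.10 CPM on chow and 2.96, 3.05 and 2.53 CPM on HFD (log2 1.98, SE 0.65, adjusted p = 0.126), again with no overlap. Of all genes, 3.56% did not overlap between diets in Ctrl and 34.4% in LIRKO. The Ctrl call was lost without Ctrl chow replicate 1 or 6 or Ctrl HFD replicate 1 or 2 (adjusted p of at most 0.0768). The endothelial sums given for Dhrs3 split the LIRKO chow libraries as Cd38 did, and their part in it was not tested. The median log2 difference of the 14 was −0.17 between genotypes on chow and 0.08 on HFD in Ctrl, beside −0.02 and 0.04 for all genes.

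The genes whose levels most resembled Aldh1a3 over the 18 libraries were sought among 11522 named genes with a mean log2 CPM of at least 1, by Pearson correlation of log2 CPM. The 8 closest were Aass (0.965), a lysine catabolism enzyme, Oxtr (0.956), the oxytocin receptor, Gucy2c (0.950), a guanylate cyclase receptor, C1qtnf1 (0.946), a secreted C1q family protein, Cd44 (0.936), the hyaluronan receptor, Gprc5b (0.931), Iqsec3 (0.930) and Gucy1b1 (0.929), a soluble guanylate cyclase subunit. The libraries share group, depth and preparation, so these values are a description. C1qtnf1 had the same order of group means, at 1.29 ± 1.25, 2.98 ± 1.23, 20.5 ± 1.40 and 30.0 ± 1.57 CPM in Ctrl chow, Ctrl HFD, LIRKO HFD and LIRKO chow, and so did Oxtr at 7.17 ± 1.92, 12.6 ± 3.78, 22.0 ± 2.94 and 29.2 ± 2.19 CPM. Gucy2c was at 25.4 ± 7.28, 44.8 ± 9.49, 96.0 ± 11.1 and 118 ± 4.94 CPM and Aass at 1.11 ± 1.04, 2.94 ± 0.680, 5.71 ± 1.84 and 8.43 ± 2.19 CPM. In 3 of the 8 the mean of LIRKO HFD was above that of LIRKO chow, at 12.6 ± 1.88 and 7.39 ± 1.03 CPM for Iqsec3, 77.8 ± 18.7 and 74.5 ± 5.73 CPM for Cd44 and 5.43 ± 0.347 and 5.14 ± 1.61 CPM for Gprc5b. The 4 with the most opposite pattern were Pycard (−0.908), an inflammasome adaptor, Hspa12b (−0.896), Wscd1 (−0.895) and Rab19 (−0.892). By Spearman correlation 5 of the 8 closest were the same, and after removing the group means 1 of the 8 was. With the group means removed the 8 correlations were 0.650 to 0.835, which ranked them 7 to 48 of the 11522 genes. Without Ctrl chow replicates 5 and 6, the libraries farthest from the median of Aldh1a3, the 8 correlations were 0.901 to 0.969. Within Ctrl chow all 8 genes were highest in replicate 3, the library where Aldh1a3 was highest too. There Aass was at 3.22 CPM, against at most 0.887 in the rest of the group, and C1qtnf1 at 3.79, against at most 1.06. The correlations were not computed without replicate 3, so how far they rest on it is not known.

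The 6 other genes of the set that were tested were less like it. Over the same libraries the correlation with Aldh1a3 was 0.54 for Dhrs3, 0.29 for Aldh1a2, 0.03 for Rdh10, −0.28 for Aldh1a1, −0.37 for Rara and −0.52 for Rbp4. The neighbours of Aldh1a3 on chromosome 7 were also set beside it. Lrrk1, a kinase gene on the same strand whose nearest base is separated from Aldh1a3 by 2539 bases, was at 2.53 ± 0.596 and 3.31 ± 0.576 CPM on chow and at 4.87 ± 1.94 and 5.69 ± 0.583 CPM on HFD, Ctrl before LIRKO. It rose on HFD in Ctrl (log2 0.95, SE 0.24, adjusted p = 0.0338) and overlapped between genotypes on chow (log2 0.39, SE 0.25, adjusted p = 0.440), where Aldh1a3 did not overlap. The noncoding gene Gm44753, 14080 bases away on the other side, was at 0 to 0.149 CPM.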

How the data were processed

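The authors deposited counts, whole numbers of reads per Ensembl gene and library. Per the submitters' processing notes STAR, featureCounts and GRCm38 were used, and no source used here gives their versions, the annotation release or the strand setting. Of 53090 gene IDs 52489 matched GENCODE M21, which supplied symbols, coordinates and exon lengths, and 601 did not. From the counts, 19284 genes passed filterByExpr and were fitted with edgeR 4.0.16 in R 4.3.3 (TMM scaling, quasi-likelihood test, 1 coefficient per group, all 18 libraries). The tests are two-sided, with Benjamini-Hochberg adjustment over all genes in each of 5 comparisons and a threshold of 0.05. SE is the log2 difference divided by the root of its F statistic. Group values are mean ± SD of CPM, and likeness used log2 CPM with a prior count of 2. The number of reads limits precision, and floors of 3 counts cover counting error only.

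The members, the retinoid and marker lists and the rule for named genes were chosen with earlier results of these data known. The rule named the 9 members, other retinoid genes that passed in a pairwise comparison (up to 6 a list), a few fixed receptor, binding and CYP26 genes, the 8 genes most and 4 least like Aldh1a3, and neighbours. Alternatives were RLE scaling, DESeq2 1.42.0, limma 3.58.1 (voom), no filter, fits to 2 groups, LIRKO chow pairs summed, and libraries left out. Marker lists for mesothelial, Schwann, duct and macrophage cells were summed as well. Results for some genes on these lists are not reported here.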

Additional observations from a re-analysis of the deposited data

Results flagged for a closer look

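In 24 groups of 4 to 6 libraries checked for a library far from the others, 2 were found, and chance alone gives about 1 in 20. Aldh1a3 in Ctrl chow replicate 3 was at 21.1 CPM, and the next highest library of the group at 2.19 CPM. Rara in Ctrl chow replicate 4 was at 17.3 CPM, and the next highest at 12.2 CPM. Without the first library, the log2 difference of Aldh1a3 between LIRKO and Ctrl on chow was 5.71. No explanation was tested for either.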

How the results depend on the processing

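Counts of calls moved most. For LIRKO against Ctrl on chow, 993 genes passed in all, 1649 in DESeq2, 1583 in a fit to the 2 groups, 191 with the LIRKO chow pairs summed, 1744 without Ctrl HFD replicates 1 and 2, and 431 to 1120 with 1 library left out. Of the 9 retinoid genes 1 passed, 2 in DESeq2, with the 2 groups and without Ctrl HFD replicates 1 and 2, and 1 to 2 with 1 library left out. Here and below, counts of the 9 include Aldh1a3 where it passed, which is no test because its level chose it. Without Aldh1a3, 0 of the 6 others tested passed in edgeR on chow and 2 in DESeq2. Of the further retinoid genes 6 passed, 11, 10, 0 and 10 under the 4 alternatives in that order, and 1 to 9 with 1 library left out. For LIRKO against Ctrl on HFD the counts over all genes were 98, then 316, 19, 56 and 190, and 11 to 162 with 1 left out. The 9 gave 0 to 1 there, and the further retinoid genes 2 without Ctrl HFD replicates 1 and 2. For HFD against chow in Ctrl they were 1914, then 3910, 1, 122 and 30, with 457 without the filter and 69 to 3891 with 1 left out. The 9 gave 1, 2 in voom, 0 with the 2 groups, the pairs summed or without Ctrl HFD replicates 1 and 2, and 0 to 2 with 1 left out. The further genes gave 5, then 11, 0, 1 and 0, 2 in voom and 2 without the filter, and 0 to 10 with 1 left out. For HFD against chow in LIRKO the counts were 392, then 1059, 3401, 13 and 1191, with 841 in voom, 250 without the filter and 55 to 488 with 1 left out. The 9 gave 1, then 2, 3, 0 and 2, and 0 to 1 with 1 left out. The further genes gave 0, then 3, 13 and 4 (0 with the pairs summed), 3 in voom and 0 to 1 with 1 left out. The interaction gave 1 gene, 42 in DESeq2, 0 with the pairs summed, 5 without Ctrl HFD replicates 1 and 2, and 1 to 3 with 1 left out, of the 9 genes 0 to 1. The causes were not tested beyond the change in libraries itself.

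Among log2 differences of the 9 genes 21 values changed sign, none past the threshold. With 1 library left out, Rdh10 ran from −0.0204 to 0.0669 for genotype on chow, from −0.0195 to 0.136 for genotype on HFD and from −0.0427 to 0.112 for the interaction, Aldh1a2 from −0.16 to 0.83 and Aldh1a1 from −0.17 to 1.03 for genotype on HFD, and Aldh1a1 from −0.37 to 0.83 for diet in LIRKO. Without Ctrl HFD replicates 1 and 2 the genotype difference on HFD was −0.40 for Aldh1a2, −0.11 for Rdh10 and 0.0274 for Rara, and the interaction of Rdh10 was −0.17. That of Aldh1a2 was 0.16 in voom. The log2 difference of Aldh1a3 kept its sign throughout, at 3.94 to 5.71, 1.59 to 1.97, 1.38 to 3.19 and −0.86 to −0.71 in the 4 pairwise comparisons with 1 library left out. Its mean in Ctrl chow fell from 4.92 to 1.68 CPM without replicate 3, a move within 1 SD of 7.96 that this library itself sets, and its other group means and its shares of the dehydrogenases moved by less than 1 SD under the alternatives run. DESeq2 gave no p for Aldh1a3 in any comparison and no adjusted p for some low genes. The 2 calls of DESeq2 among the 9 on chow are thus Rara and Rbp4. The 1 call in edgeR is Aldh1a3, which was chosen on its level and for which no test is given. Leaving out a library of LIRKO HFD left 2, whose spread is taken from all groups. No paired analysis was possible because the labels give no replicate numbers shared between groups. Depth limits Aldh1a1, Aldh1a2, Rarb and Rxrg, which stood at or near the floor of 3 counts.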

Other observations

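Marker sums not described above are given here, and those of macrophage and duct markers overlapped between genotypes on both diets. The sum of 12 macrophage markers was 127 to 213 CPM (Ctrl) and 104 to 178 CPM (LIRKO) on chow, and 146 to 303 CPM (Ctrl) and 235 to 261 CPM (LIRKO) on HFD. The sum of 10 duct markers was 892 to 1634 CPM over all libraries. The 9 mesothelial markers summed to 35.8 to 62.2 CPM (Ctrl) and 20.8 to 22.6 CPM (LIRKO) on chow, and to 20.2 to 41.6 CPM (Ctrl) and 4.38 to 12.4 CPM (LIRKO) on HFD, and 3 of the 9 had at least 10 counts in a library. Krt19, on both the duct and the mesothelial list, went the other way between genotypes. Its median was 4.42 CPM (Ctrl) and 8.71 CPM (LIRKO) on chow, and 3.05 CPM (Ctrl) and 7.34 CPM (LIRKO) on HFD. The 8 Schwann cell markers summed to 13.1 to 44.9 CPM. The 8 PP cell markers summed to 148 to 424 CPM in LIRKO chow and to 288 to 2034 CPM in the other groups.

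The retinoid genes left out of the test were at very low counts in these beta cell libraries. The retinol esterifying and isomerising genes Lrat and Rpe65 had 2 counts each over the 18 libraries, and Isx, a repressor of intestinal vitamin A uptake, had 0. The dehydrogenase Rdh16 had 128 counts, Rdh7 49, Rdh9 40 and Adh4 37, while Sdr16c5 and Sdr16c6 had 0. Among target genes Stra8 had 5 counts, Hoxb1 1, Cdx1 0 and Foxa1 49.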
